A study of Mus musculus with 8 samples.

Results

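This account covers 34 genes for heat shock proteins and other protein-folding chaperones in follicular regulatory T (TFR) cells of mice, out of 24421 genes counted. The genes were taken by symbol and cover the HSP70, HSP110, HSP90 and HSP40 (J-domain) families, cochaperones, 7 subunits of the CCT chaperonin, mitochondrial chaperones, Hspb1, Hspb11 and the heat shock factors Hsf1 and Hsf2. All 34 had a row in the count table and all 34 passed the filter on low counts, so none was dropped from the comparison. TFR cells carry Foxp3, enter B cell follicles and hold germinal centres in check. mRNA (KAPA mRNA HyperPrep libraries) was sequenced in 4 wildtype (WT) libraries and in 4 libraries from Blimp1-flox Foxp3-cre mice, written as Blimp1-flox. In the latter genotype Cre is driven from the Foxp3 locus, so that Prdm1, which encodes the transcriptional repressor Blimp1, is targeted in regulatory T cells. Peanut plus cholera toxin was given by mouth to both groups in 2 challenges. Splenic CD4+ T cells were taken 36 days later and sorted as Foxp3+YFP+ CXCR5+ PD1+ cells. The sources used here do not give the Cre status of the WT mice, the number of floxed alleles, the age of the mice or whether each library came from its own mouse. The spread behind each p-value is thus that between these libraries, some of which may be technical.

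Chaperones bind unfolded proteins and help them fold, assemble or be degraded. HSP70 proteins cycle on and off their clients with J-domain proteins, which deliver the clients, and with nucleotide exchange factors such as HSP110 and BAG proteins. HSP90 takes over clients such as kinases and steroid receptors with the help of cochaperones, and the ring-shaped CCT chaperonin folds actin and tubulin. Under heat or other proteotoxic stress the transcription factor HSF1 binds inverted repeats of the letters GAA, called heat shock elements, and activates the inducible members of these families. In lymphocytes such genes also respond to activation and to the handling of cells.

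Heat shock elements were looked for in the promoters, because HSF1 acts on many of these genes through them. RefSeq promoter sequences (GRCm38.p6, the assembly of mm10) were matched for 28 of the 34 genes, and the 250 bases before each transcription start were searched. No sequence was matched for Cct4, Hsf1, Hsp90aa1, Hsp90ab1, Hspa8 and Hspa9. An inverted pair, GAANNTTC or TTCNNGAA, which reads the same on both strands, was found in 12 of the 28 genes (42.9%) and in 14.5% of all 27025 genes with such a sequence. Pairs may share letters with one another in these counts. Only exact repeats within these 250 bases were searched, so a gene without a pair may still hold a heat shock element. Dnajb1, a classic HSF1 target, was among the genes without a pair. The 4 genes with the lowest fold changes in Blimp1-flox libraries, Dnajb4, Hspb1, Hspa1b and Hspa1a, all carried a pair, and the next lowest, Bag3 at -0.39 against -0.40 for Hspa1a, carried none. The windows of the 4 are shown for that reason, which was seen in the data, 5′ to 3′ on the strand of the gene and ending at the base before the start, with the pairs in capitals. The place of Hspa1a among the 4 was not stable. It had 10 to 39 counts a library, and without WT 1 it was at -0.0964 against -0.27 for Bag3. The cut at 4 was chosen on the values, so it is no test of a link between pairs and fold changes. Hspa1a lies on the minus strand (chr17:34972157-34972306), as do Hspa1b (chr17:34959239-34959388) and the second RefSeq start of Dnajb4 (chr3:152193846-152193995). Hspb1 lies on the plus strand (chr5:135887769-135887918). None of these windows overlaps an exon of the count table or of the GENCODE annotation, and that of Dnajb4 is intronic, since its second start lies inside the gene.
Hspa1a: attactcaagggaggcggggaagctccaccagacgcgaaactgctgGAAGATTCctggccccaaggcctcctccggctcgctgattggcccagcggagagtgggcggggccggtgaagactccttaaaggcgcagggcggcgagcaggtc
Hspa1b: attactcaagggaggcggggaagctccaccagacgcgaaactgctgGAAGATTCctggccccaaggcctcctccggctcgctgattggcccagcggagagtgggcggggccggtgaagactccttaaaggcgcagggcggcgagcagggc
Hspb1: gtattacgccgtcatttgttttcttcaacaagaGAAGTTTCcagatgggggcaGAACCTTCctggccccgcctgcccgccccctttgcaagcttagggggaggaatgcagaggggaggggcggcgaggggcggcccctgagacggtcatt
Dnajb4: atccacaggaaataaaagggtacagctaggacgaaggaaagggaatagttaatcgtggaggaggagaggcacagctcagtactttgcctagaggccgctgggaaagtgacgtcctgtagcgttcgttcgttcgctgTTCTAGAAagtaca

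The Hspa1a and Hspa1b promoters were identical at 247 of 250 bases, so their matches are not independent of each other. In both, the pair began 104 bases before the start. In Hspb1 pairs began 117 and 97 bases before the start, and in Dnajb4 a pair began 14 bases before the second of its RefSeq starts and none was found before the first. A longer run of repeats, GAANNTTCNNGAA or TTCNNGAANNTTC, was found in 3 of the 28 genes (Hspe1, Hspd1 and Dnajb6) and in 0.514% of all genes with a sequence. Those of Hspe1 and Hspd1 are the same letters, because these genes for the mitochondrial chaperonin are read in opposite directions from a shared region. Of Hspe1 the site on the plus strand at chr1:55088055-55088080 is shown, and of Dnajb6 the site on the plus strand at chr5:29735848-29735868, with the repeats in capitals.
Hspe1: tccgTTCTAGAACCTTCCGGAAggcc
Dnajb6: ccgaGAATCTTCCGGAAcgct
The longest runs were not those of the genes with the largest differences. The log2 fold change (Blimp1-flox relative to WT) was -0.19 for Hspe1, -0.0483 for Hspd1 and -0.0218 for Dnajb6. Over the 12 genes with a pair 9 fold changes were negative and 3 positive, with a median of -0.0809. Over the 16 genes with a sequence and no pair 7 were negative and 9 positive, with a median of 0.0399. These are descriptions, and no test of the difference was made. The letters AGNGAAAG (or CTTTCNCT on the other strand), the core that Blimp1 is known to bind, were found in 1 of the 28 promoters, that of Dnaja2, and in 8.42% of all genes with a sequence.

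Library totals ranged from 16425538 to 27595939 counts. Prdm1 had 31.8 to 71.0 CPM (counts scaled to a common library size with TMM factors) in WT and 7.53 to 16.6 CPM in Blimp1-flox, and no WT library was as low as any Blimp1-flox library (log2 fold change -2.14 ± 0.31, SE; edgeR adjusted p = 0.0203). The sorted phenotype was present in every library, with 55.7 to 105 CPM of Foxp3, 391 to 568 CPM of Cxcr5 and 774 to 1477 CPM of Pdcd1. Foxp3 held 72.5 to 105 CPM in WT and 55.7 to 75.5 CPM in Blimp1-flox (log2 fold change -0.40 ± 0.13, SE; edgeR adjusted p = 0.176). Of 11 TFR and T cell markers 1 was called, Il2ra. It was lower in Blimp1-flox without overlap of the groups (-1.39 ± 0.23 on the log2 scale, SE; edgeR adjusted p = 0.0311). Genes of other cells were also counted. The 20 B cell markers summed to 641 to 2774 CPM in WT, highest in WT 4, and to 576 to 711 CPM in Blimp1-flox, and none of them was at 0 in all libraries; 15 of the 20 were lower in Blimp1-flox at an unadjusted p under 0.05 and none was called. The 14 myeloid and dendritic markers summed to 98.0 to 129 CPM in the WT libraries and 79.0 to 215 CPM in Blimp1-flox, and the 16 pancreas markers to 34.2 to 73.8 and 52.5 to 110 CPM. The 6 plasma cell markers summed to 232 to 318 CPM in the WT libraries and 222 to 336 CPM in Blimp1-flox, and 1 of them, Sdc1, was higher in Blimp1-flox (1.87 ± 0.34 on the log2 scale, SE; edgeR adjusted p = 0.0334). The 8 CD8 T and NK cell markers summed to 39.2 to 52.0 CPM in the WT libraries and 51.8 to 55.4 CPM in Blimp1-flox. Single genes gave a large part of some of these sums. Over all libraries these were Cst3 (69.3 to 124 CPM, myeloid), Xbp1 (204 to 296 CPM, plasma cell) and Cela1 (27.5 to 67.3 CPM, pancreas). Cpa1, Cpb1, Cela2a, Pnlip, Cel and Clps of the pancreas list were at 0 counts in WT 1, WT 3 and Blimp1-flox 4. Of the CD8 T and NK cell markers Klrb1c reached 37.4 CPM and Cd8b1 17.9 CPM, but Cd8a only 0.351 CPM. The part of RNA of other cells in the chaperone results was not tested. The 4 haemoglobin genes looked up were listed at 0 in every library. On principal components of log2 CPM, WT 4 and Blimp1-flox 3 stood apart from the rest.

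As a group the chaperone genes differed little between the genotypes. None of the 34 was called at an adjusted p under 0.05 in the quasi-likelihood test of edgeR, in which 62 of 12363 genes were called (0.501%; 0.259% higher and 0.243% lower in Blimp1-flox). At an unadjusted p under 0.05, 6 were lower (17.6%) and 0 higher, against 9.05% and 7.11% of all tested genes. This count rested in part on single libraries: it was 3 lower without Blimp1-flox 3, and 4 lower and 1 higher without WT 1. It was 3 lower with a score of B cell markers as a covariate. Of all tested genes, 1998 of 12363 had such a p in either direction. There were 2084 of 12524 without Blimp1-flox 3, 2414 of 12540 without WT 1 and 701 of 12363 with the score. DESeq2 called 1 of the 34 genes (3.66% of all genes) and limma-voom with quality weights 2 (4.09%), all of them lower. With edgeR 1 was called with no filter on low counts (0.529% of all genes) and 1 without both WT 4 and Blimp1-flox 3 (1.27%). In these bulk libraries fewer cells of a type and less RNA per cell cannot be told apart. The median log2 fold change of the 34 genes was -0.0280, with 20 negative (58.8%) and 14 positive, and that of all tested genes, of which 49.9% were negative, was 0.00119. The median size of the fold change without its sign was 0.0877 for the chaperone genes and 0.165 for all tested genes, which were not matched for level.

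The precision of these comparisons can be read from the 95% interval of each fold change, which was computed from the edgeR standard error. For 28 of the 34 genes (82.4%) the whole interval lay within 1.5-fold of no difference, as it did for 59.5% of all tested genes. These shares were not matched for level. The 6 genes whose interval reached past 1.5-fold were Dnajb4, Hspb1, Hspa1b, Hspa1a, Bag3 and Hsf2. Of these, Hspa1a, Hspb1, Hsf2 and Hspa1b had the lowest mean log2 CPM of the 34 genes, from -0.16 to 2.27. In 4 genes the groups did not overlap, as in 8.47% of all tested genes. All WT libraries were higher for Dnajb4, Hsp90aa1 and Hsf1 (8.82%, against 4.72% of all tested genes) and all Blimp1-flox libraries for Cct8 (2.94%, against 3.75%).

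**Figure D1:**
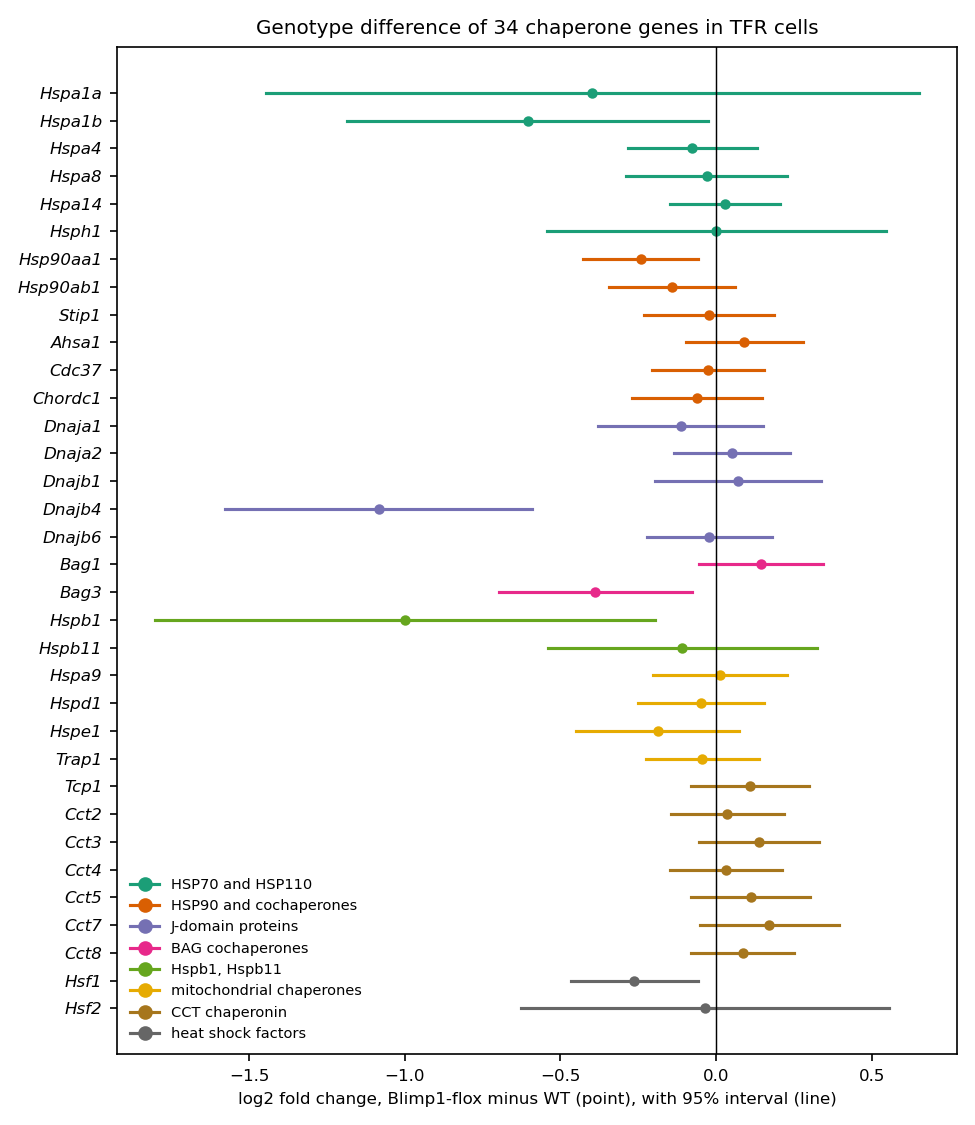
Log2 fold change of each of the 34 chaperone genes, Blimp1-flox minus WT (points), with the 95% interval from edgeR (lines), coloured by role. Dnajb4 and Hspb1 stand lowest at -1.08 and -1.0, most other points lie close to 0, and all 7 CCT subunits lie to the right of 0.

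The chaperone genes covered a wide range of levels. Per kilobase of exon, which allows genes to be compared, Hsp90ab1, the constitutive cytosolic HSP90, was highest with a mean of 611 CPM per kilobase in WT, followed by Hspa8, the constitutive cytosolic HSP70 (also called HSC70), with 476. The CCT genes ranged from 71.4 for Tcp1 to 184 for Cct3 in WT. The inducible genes Hspa1b and Hspa1a stood at 2.13 and 0.358 CPM per kilobase in WT and at 1.40 and 0.272 in Blimp1-flox. As counted, the level per length of Hspa8 was 245 ± 91.7 times that of Hspa1b in WT and 335 ± 57.2 times in Blimp1-flox (SD, n = 4). Reads of the near-identical Hspa1a and Hspa1b may have been split between them or dropped, so their levels and this ratio are uncertain. Hsp90ab1 stood at 5.12 ± 0.200 times Hsp90aa1 in WT and 5.50 ± 0.429 times in Blimp1-flox (SD, n = 4), with ratios of 4.88 to 5.30 and 4.94 to 5.99 that overlapped.

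**Figure D2:**
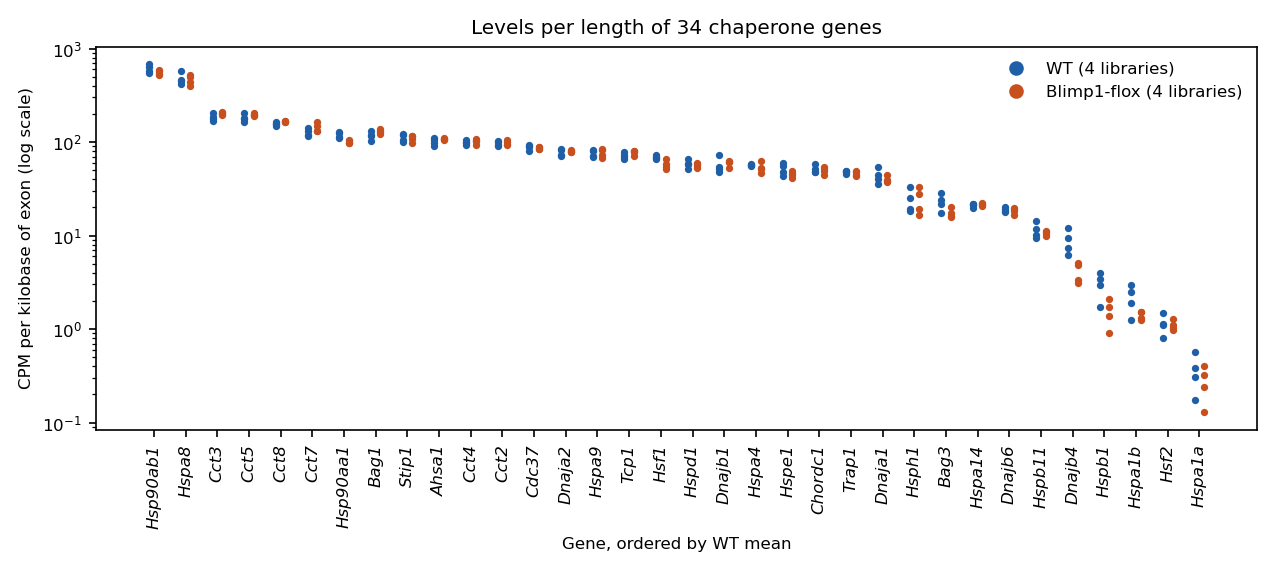
Level of each chaperone gene in each library, in CPM per kilobase of exon on a log scale, ordered by the WT mean (blue WT, orange Blimp1-flox, 4 libraries each). Hsp90ab1 and Hspa8 stand at the top at 611 and 476 in WT and Hspa1a at the bottom at 0.358. The counts of the near-identical Hspa1a and Hspa1b are uncertain.

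In the HSP70 and HSP110 group none of 6 genes was called, and 2 fold changes were positive and 4 negative. Hspa1a and Hspa1b encode near-identical inducible HSP70 proteins and lie close together on chromosome 17, so reads may have been split between them or dropped, and their counts are uncertain. Hspa1b held 6.94, 5.27, 3.51 and 8.25 CPM in the WT libraries and 4.26, 4.32, 3.70 and 3.49 CPM in Blimp1-flox. WT 4 and WT 1 were the highest, and WT 3 lay within the Blimp1-flox range. Its log2 fold change was -0.61 ± 0.27 (SE; edgeR adjusted p = 0.290), and it was -0.41 without WT 4, the library with the most B cell RNA. With a score of the B cell markers as a covariate it was -0.25. Hspa1a held 1.57, 0.864, 0.483 and 1.08 CPM in the WT libraries and 0.669, 1.12, 0.360 and 0.895 CPM in Blimp1-flox, from 10 to 39 counts a library. The groups overlapped, and the log2 fold change of -0.40 ± 0.48 (SE) had an interval from -1.45 to 0.65. It was -0.0964 without WT 1, -0.15 without Blimp1-flox 3 and -0.11 without both WT 4 and Blimp1-flox 3.

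The constitutive members were measured far more precisely. Hspa8 held 1216, 875, 976 and 938 CPM in the WT libraries and 839, 1094, 935 and 1054 CPM in Blimp1-flox, with a log2 fold change of -0.0301 and an interval from -0.29 to 0.23. Hspa4, a nucleotide exchange factor of the HSP110 family, had a log2 fold change of -0.0767 (interval -0.28 to 0.13), and -0.16 without Blimp1-flox 3. Hspa14, a ribosome-associated HSP70, had 0.0285 (interval -0.15 to 0.20). Hsph1, which encodes the inducible HSP110, varied within each genotype: it held 116, 63.0, 67.7 and 88.6 CPM in the WT libraries and 66.7, 114, 58.2 and 95.7 CPM in Blimp1-flox. WT 1 and Blimp1-flox 2 were the highest, the group means were 83.7 CPM in both, and the interval of the log2 fold change ran from -0.54 to 0.54.

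Among HSP90 genes and cochaperones 5 of 6 fold changes were negative and none was called. Hsp90aa1, the stress-inducible cytosolic HSP90 on chromosome 12, held 364, 322, 315 and 359 CPM in the WT libraries and 279, 296, 299 and 277 CPM in Blimp1-flox. The lowest WT library lay above the highest Blimp1-flox library. It was 1.18-fold higher in WT (log2 fold change -0.24 ± 0.0856, SE), short of the threshold with an edgeR adjusted p of 0.207. Over all alternatives the value stayed between -0.28 and -0.20. For Hsp90ab1 the difference was -0.14 ± 0.0930 on the log2 scale (SE), -0.0902 without WT 1 and -0.0650 with the B cell score, and the groups overlapped, with 1381 to 1698 CPM in the WT libraries and 1301 to 1468 CPM in Blimp1-flox. The cochaperone genes were closer to 0. Stip1, which encodes the HOP adaptor between HSP70 and HSP90, had -0.0224, the kinase-specific cochaperone gene Cdc37 -0.0259 and Chordc1 -0.0611. Ahsa1, which encodes the activator of the HSP90 ATPase, was the 1 gene of the group with a positive value (0.0906, interval -0.0973 to 0.28).

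Dnajb4 showed the largest difference of the 34 genes. It encodes a cytosolic J-domain protein that delivers clients to HSP70 and lies on chromosome 3 from 152183871 to 152210083 in mm10. It held 26.4, 33.6, 17.3 and 20.6 CPM in the WT libraries and 8.64, 13.7, 14.3 and 9.33 CPM in Blimp1-flox. Every WT library lay above every Blimp1-flox library, with WT 2 the highest and Blimp1-flox 1 the lowest. The mean was 24.5 ± 7.13 CPM in the WT libraries and 11.5 ± 2.92 CPM in Blimp1-flox (SD, n = 4), or 2.12-fold higher in WT. The log2 fold change was -1.08 ± 0.23 (SE), with an interval from -1.58 to -0.59. In edgeR it missed the threshold (adjusted p = 0.0579) and ranked 84 of 12363 genes by p. It passed in DESeq2 (-1.08, adjusted p = 5.2e-04), in weighted limma-voom (-1.09, adjusted p = 0.0221) and in unfiltered edgeR (-1.08, adjusted p = 0.0335). It also passed in edgeR without WT 3 (-1.22, adjusted p = 0.0456) and without both WT 4 and Blimp1-flox 3 (-1.28, adjusted p = 0.0268). Over all alternatives the edgeR, DESeq2 and limma adjusted p ran from 5.2e-04 to 0.372 and the log2 fold change from -1.49 to -0.89. The fit with the B cell score as a covariate gave -1.49 at an adjusted p of 0.372; no gene was called in that fit, and 62.1% of the variance of that score lay between the genotypes.

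The other J-domain genes did not show this. Dnajb1, the inducible partner of HSP70 and a classic HSF1 target, held 233, 167, 175 and 154 CPM in the WT libraries and 201, 196, 170 and 199 CPM in Blimp1-flox. Its groups overlapped and its log2 fold change was 0.0714 (interval -0.20 to 0.34). Dnaja1 and Dnaja2, which assist constitutive HSP70, had -0.11 and 0.0512, and Dnajb6, a suppressor of protein aggregation, had -0.0218. Exons of Dnaja1 and Dnajb6 overlap other genes in the count table, so those counts are uncertain.

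**Figure D3:**
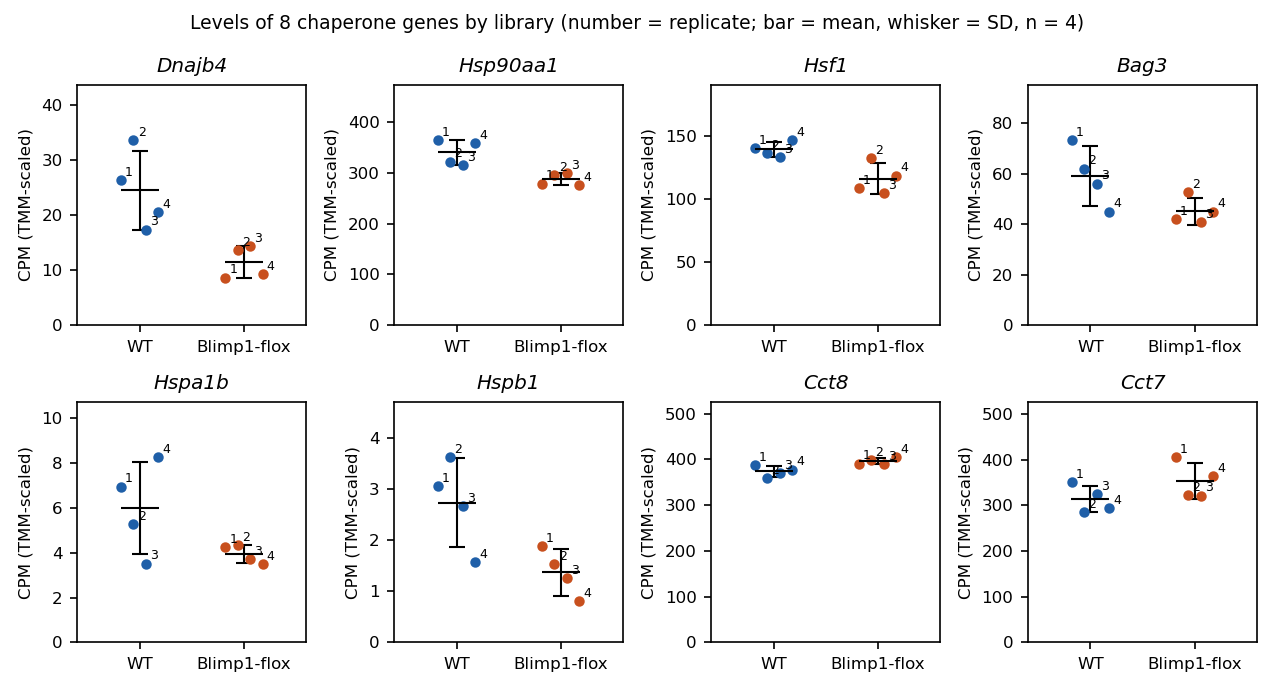
TMM-scaled CPM of 8 chaperone genes in each library (points, numbered by replicate), with the mean and SD of each group (bar and whiskers, n = 4) and axes from 0. Dnajb4, Hsp90aa1 and Hsf1 show no overlap between the groups with WT above, and Cct8 shows none with Blimp1-flox above.

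The BAG genes, whose products release HSP70 from its clients, lay on opposite sides of 0. Bag3, the inducible member that links HSP70 to autophagy, held 73.3, 62.0, 56.1 and 45.0 CPM in the WT libraries and 42.0, 52.6, 41.0 and 45.0 CPM in Blimp1-flox. WT 4 lay within the Blimp1-flox range and the other WT libraries lay above it. For Bag3 the log2 fold change was -0.39 ± 0.14 (SE; edgeR adjusted p = 0.225), -0.27 without WT 1 and -0.71 with the B cell score. Bag1 held 177, 140, 160 and 156 CPM in the WT libraries and 177, 164, 185 and 173 CPM in Blimp1-flox, at a difference of 0.14 ± 0.0921 on the log2 scale (SE; edgeR adjusted p = 0.459). WT 1 lay within the Blimp1-flox range of Bag1.

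Hspb1, which encodes the small heat shock protein HSP27 in mice (also HSP25) and was singled out after its values were seen, was low in all libraries. It held 3.07, 3.63, 2.68 and 1.57 CPM in the WT libraries and 1.89, 1.54, 1.26 and 0.809 CPM in Blimp1-flox, from 19 to 84 counts a library. WT 4 lay within the Blimp1-flox range. For Hspb1 the log2 fold change was -1.0 ± 0.37 (SE; edgeR adjusted p = 0.228). Weighted limma-voom called it (-1.38, adjusted p = 0.0376), and the adjusted p ran from 0.0376 to 0.845 over the alternatives. Hspb11 carries the family's name but encodes IFT25, a part of the intraflagellar transport complex. It held 5.30 to 7.91 CPM in the WT libraries and 5.47 to 6.20 CPM in Blimp1-flox, with a log2 fold change of -0.11 (interval -0.54 to 0.32).

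The mitochondrial chaperones showed no difference beyond the spread between libraries. Hspa9, the mitochondrial HSP70 also known as mortalin, had a log2 fold change of 0.0122 (interval -0.20 to 0.23). Hspd1, the chaperonin HSP60, had -0.0483 (interval -0.25 to 0.15), and Trap1, the mitochondrial HSP90, had -0.0439 (interval -0.23 to 0.14). Hspe1, the HSP10 lid of the chaperonin, held 42.8, 33.7, 36.3 and 45.6 CPM in the WT libraries and 37.7, 31.7, 35.5 and 34.3 CPM in Blimp1-flox. WT 1 and WT 4 lay above all Blimp1-flox libraries and WT 2 and WT 3 within their range. Its log2 fold change was -0.19 ± 0.12 (SE; edgeR adjusted p = 0.462), and -0.11 without WT 4. The level per length of Hspd1 was 1.14 ± 0.122 times that of Hspe1 in WT and 1.25 ± 0.151 times in Blimp1-flox (SD, n = 4). An exon of Trap1 overlaps Dnase1, so its count is uncertain.

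All 7 CCT subunit genes had small positive fold changes, from 0.0331 for Cct4 to 0.17 for Cct7, with a median of 0.11, where 50.1% of all tested genes were positive. None was called, and the smallest adjusted p of the group was 0.436. All 7 stayed positive in each of the 17 alternatives, but some values came close to 0: Cct3 was at 0.0016 with the B cell score as a covariate, Cct2 at 0.0036 without WT 2 and Cct4 at 0.0054 without Blimp1-flox 2. The subunits form one complex and were counted in the same libraries, so they are not independent of each other. Cct8 held 387, 359, 370 and 377 CPM in the WT libraries and 391, 399, 390 and 404 CPM in Blimp1-flox. All Blimp1-flox libraries were higher, the lowest of them at 390 CPM against 387 CPM in WT 1. Its log2 fold change was 0.0848 ± 0.0769 (SE; edgeR adjusted p = 0.616). Cct7 held 350, 286, 325 and 295 CPM in the WT libraries and 405, 323, 321 and 365 CPM in Blimp1-flox, and its groups overlapped (0.17 ± 0.10, SE; edgeR adjusted p = 0.436). Cct3, Cct5 and Tcp1 had log2 fold changes of 0.14, 0.11 and 0.11, and Cct2 had 0.0362. Exons of Tcp1, Cct7 and Cct8 overlap other genes, so these counts are uncertain. Cct6a, which encodes a further subunit of the ring, differed by 0.19 ± 0.0825 on the log2 scale (SE; edgeR adjusted p = 0.292).

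The summed CPM of the 7 CCT genes was 2108, 1809, 1920 and 1883 in WT and 2099, 2039, 2055 and 2115 in Blimp1-flox. WT 1 lay among the Blimp1-flox libraries and the other WT libraries lay below all of them. The 6 HSP90 and cochaperone genes summed to 2340 to 2801 CPM in the WT libraries and 2280 to 2476 CPM in Blimp1-flox, and the 6 HSP70 and HSP110 genes to 1334 to 1709 and 1260 to 1578 CPM. Over all 34 genes the sum was 7618 ± 590.1 CPM in the WT libraries and 7482 ± 210.1 CPM in Blimp1-flox (SD, n = 4), which is 0.760% ± 0.0504 and 0.748% ± 0.0173 of library counts.

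**Figure D4:**
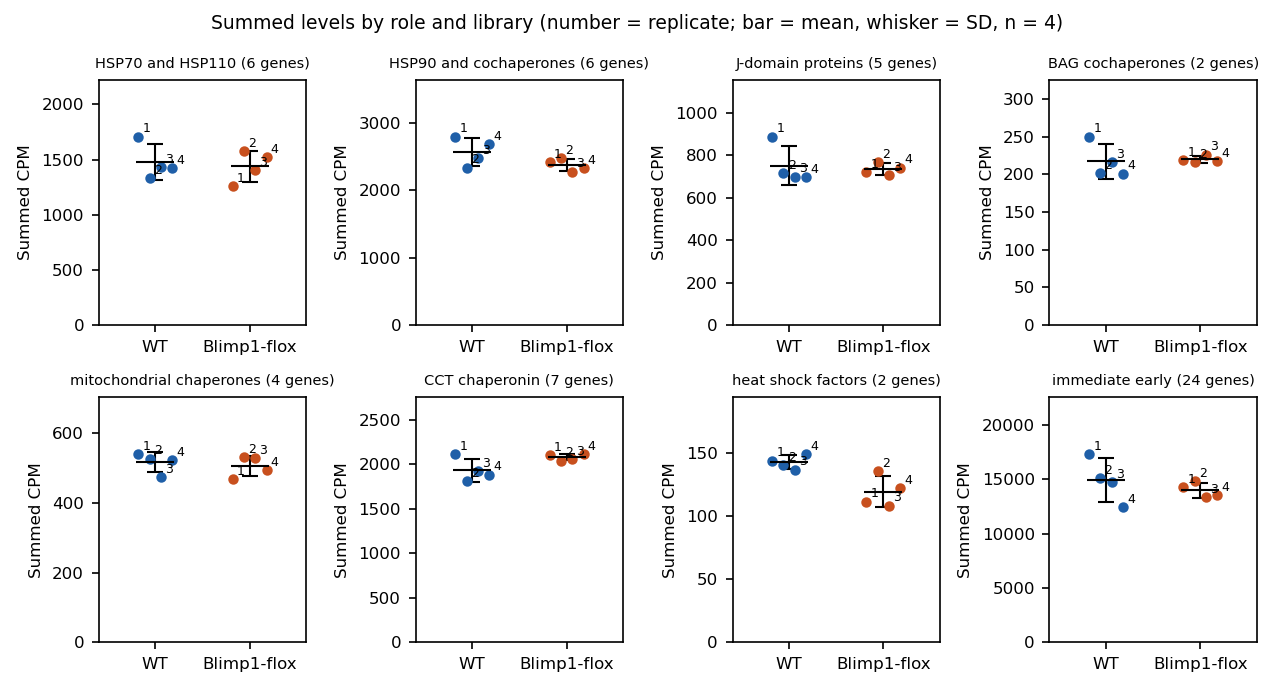
Summed TMM-scaled CPM of each role group of chaperone genes, and of 24 immediate early genes, in each library (points, numbered by replicate), with the mean and SD of each group (n = 4) and axes from 0. WT 1 is the highest library for HSP70, HSP90, J-domain and BAG genes and for immediate early genes.

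Hsf1, the heat-responsive transcription factor, held 141, 137, 134 and 147 CPM in the WT libraries and 109, 133, 105 and 119 CPM in Blimp1-flox. The groups did not overlap, but Blimp1-flox 2 at 133 CPM lay close to WT 3 at 134 CPM. Hsf1 was 1.20-fold higher in WT (log2 fold change -0.26 ± 0.0942, SE), short of the threshold with an edgeR adjusted p of 0.213. It was -0.16 with the B cell score as a covariate. Hsf2, a related factor active in development, held 2.91, 3.85, 2.94 and 2.13 CPM in the WT libraries and 2.55, 2.66, 3.38 and 2.90 CPM in Blimp1-flox. The groups of Hsf2 overlapped, and its log2 fold change was -0.0362 ± 0.27 (SE), and -0.25 without WT 4 and Blimp1-flox 3.

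WT 1 held the highest level of 12 of the 34 genes, among them Hspa1a, Hsph1, Hspa8, Dnaja1, Dnajb1, Bag3 and Chordc1. WT 1 also held the highest sum of 24 immediate early genes, a class switched on within minutes by stimulation or by handling of cells: 17329.7 CPM, against 12473.5 to 15132.5 CPM in the other WT libraries and 13373.8 to 14841.8 CPM in Blimp1-flox. Of these 24 genes 18 had negative fold changes and 8 were lower at an unadjusted p under 0.05 (33.3%), with none called, against 49.9% and 9.05% of all tested genes. The part of these genes in the chaperone results was not tested. Without WT 1, 17 fold changes of the 34 genes were positive and 17 negative, the median was 0.00134 and none was called. For Hsph1, Hspa8 and Chordc1, Blimp1-flox 2 was the highest library of its group.

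**Figure D5:**
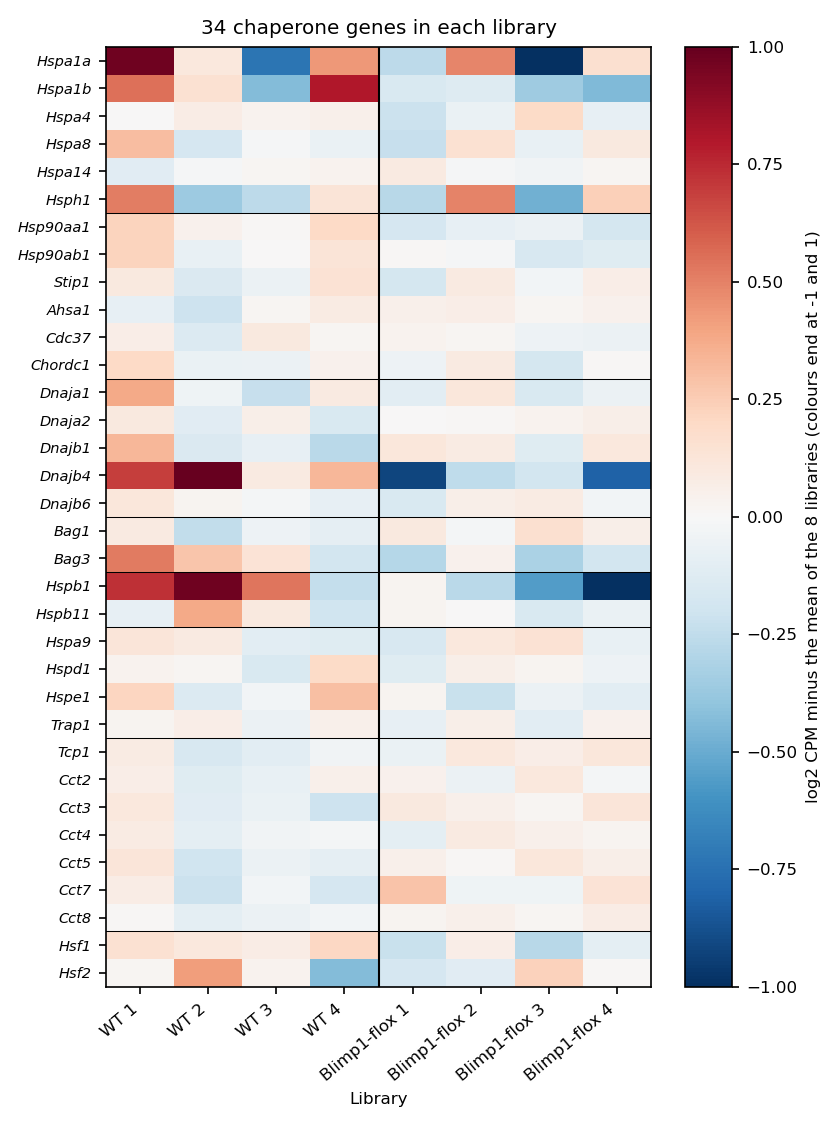
Log2 CPM of each of the 34 chaperone genes in each library, minus the mean of the 8 libraries, with red above and blue below that mean. Colours end at -1 and 1, and 3 values lie past these ends; WT 1 is red for Hspa1a, Hspa1b, Hsph1, Dnaja1 and Dnajb1, Dnajb4 is red in all WT and blue in all Blimp1-flox libraries, and most CCT rows are pale.

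Other genes of the folding machinery showed as few differences. Of 69 further cytosolic and mitochondrial chaperone and cochaperone genes 61 were tested, with 40 positive and 21 negative fold changes, a median of 0.0396 and none called. At an unadjusted p under 0.05, 4 of them were higher and 3 lower (4.92%), where 7.11% and 9.05% of all tested genes were. The lowest p-values of that list were those of Tbcd, a tubulin-folding cofactor (0.32 ± 0.10, SE; edgeR adjusted p = 0.181), and Bag2, a BAG cochaperone (0.82 ± 0.27, SE; edgeR adjusted p = 0.184). Bag2 held 8.15, 4.58, 4.30 and 7.31 CPM in the WT libraries and 15.5, 8.23, 8.56 and 11.0 CPM in Blimp1-flox, so that the groups did not overlap. Of 14 chaperone genes of the endoplasmic reticulum none was called, 10 had negative fold changes and 2 were lower at an unadjusted p under 0.05 (14.3%, against 9.05% of all tested genes). These were Hsp90b1, which encodes GRP94 (-0.48 ± 0.15, SE; edgeR adjusted p = 0.175), and Hspa5, which encodes BiP (-0.26 ± 0.12, SE; edgeR adjusted p = 0.305). Of 8 tested genes among 9 other stress-responsive genes none was called, and Gadd45b, a stress-inducible gene of the growth arrest and DNA damage family, differed by -0.30 ± 0.13 on the log2 scale (SE; edgeR adjusted p = 0.289).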

How the data were processed

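Alignment used STAR 2.5.2b and the mm10 build, and featureCounts (Subread 1.5.1) is named as the counter in the submitters' processing notes. What the authors deposited is a table of raw read counts, not normalized. Near-identical and overlapping genes are named as uncertain, because the annotation, the strand setting and the handling of reads with several matches are not given in the sources used here. The deposited table also gives each gene's exon length in bases, another kind of value and not a score, used for levels per kilobase.

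The 34 genes, the other lists and the tests were chosen with earlier results of these data known. Per-library values are given for genes that were called, had groups without overlap, were among the 8 largest differences with a mean log2 CPM of at least 1, or are an inducible HSP70 or heat shock factor gene. Those of Hspa8, Hsph1, Dnajb1 and Hspb1 were added after their values were seen. In the other lists the 2 genes with the lowest p are named, except 1 that is not reported here. Genes were kept with filterByExpr and scaled by TMM (factors 0.976 to 1.02), and tested by quasi-likelihood in edgeR 4.0.16 (R 4.3.3, robust, genotype alone) with Benjamini-Hochberg adjustment over 12363 genes. Intervals use the standard error from the F statistic and its degrees of freedom. The biological coefficient of variation was 0.192. DESeq2 1.42.0 and limma 3.58.1 were alternatives, and log2 CPM used a prior count of 2. The edgeR test was tested on simulated data.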

Additional observations from a re-analysis of the deposited data

Results flagged for a closer look

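In 68 groups of 4 libraries (34 genes in each genotype) 1 library stood apart from the other 3 by more than Dixon's 95% limit for 4 values, where chance flags about 1 in 20 groups. It was Blimp1-flox 3 for Dnajb1, at 170 CPM against 196 to 201 CPM in the other Blimp1-flox libraries. This library also stood apart on the second principal component.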

How the results depend on the processing

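Across 17 alternatives no chaperone gene was called higher in Blimp1-flox, and 6 of 577 single-gene fits gave a call, 5 of them for Dnajb4 and 1 for Hspb1, all lower. The count of chaperone genes called lower, 0 in the edgeR fit as reported, was 1 with no filter (0.529% of all genes called), 1 in DESeq2, 2 in limma-voom with quality weights, 1 without WT 4 and Blimp1-flox 3 (1.27%), 1 at an adjusted p under 0.1 (1.47%), and 0 to 1 with a single library left out (1 without WT 3, 0.342%). The count over all genes, 62, was 453 in DESeq2, 506 in limma-voom, 157 without WT 4 and Blimp1-flox 3, 182 at an adjusted p under 0.1, and 20 to 127 with a single library left out. It was 0 with the B cell score as a covariate, with 701 genes at an unadjusted p under 0.05, and that score shared 62.1% of its variance with genotype. The median log2 fold change of the chaperone genes stayed between -0.0651 and 0.0118, less than the spread between libraries. Their summed level was recomputed only with library totals and with a single library left out. It was 0.960 to 1.02 times that of WT. Of the 34 genes 18 kept 1 sign in each fit that tested them, and 16 did not. Same-numbered libraries did not deviate together (correlations of 0.10, 0.153, -0.102 and -0.108, with 1 of 4 matching its own number best). No pairing by number was seen, but values from 4 libraries in each group cannot exclude it. With a replicate block 52 genes and 0 chaperone genes were called. Hspa1a, with 10 to 39 counts a library, ranged from -0.66 to 0.10, and the cause was not tested.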
